A study of Mus musculus with 18 samples.

Results

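The genes described here carry bile acids, organic anions, phospholipid and sterols across the hepatocyte membrane, and they were followed in regenerating mouse liver. Rows were taken by gene symbol, for 10 of the 17180 genes listed in any table of the series: 4 uptake transporters (Slc10a1, Slco1b2, Slco1a1 and Slco1a4) and 6 exporters (Abcb11, Abcc2, Abcb4, Abcg5, Abcg8 and Abcc3). Liver RNA of C57BL/6 mice was sequenced after a sham operation and at 0.5, 2, 4, 24, 48, 72, 120 and 168 h after 2/3 partial hepatectomy, in which the lobes left in place grow back. Each of the 9 groups held 2 libraries, each made from 3 liver RNA samples pooled together, so that n = 2 pools throughout and the spread between single animals was not seen. The labels name the sham group only as a control, with no time of collection, so that resection and time of day cannot be told apart in a comparison with sham. The sex and age of the mice are not analysed here.

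Hepatocytes take bile acids from blood at the sinusoidal membrane and pump them into bile at the canalicular membrane. Slc10a1 (NTCP) takes up conjugated bile acids with sodium, and the Slco (OATP) carriers take up bile acids, bilirubin, hormones and drugs without it. In export, Abcb11 (BSEP) pumps bile salts, Abcc2 (MRP2) conjugated organic anions and Abcb4 (MDR2) phosphatidylcholine into bile, Abcg5 and Abcg8 form one heterodimer that secretes sterols, and Abcc3 (MRP3) returns anions to blood. The regenerating liver receives the whole portal return of bile acids with less tissue, and bile acid handling has long been studied there for that reason.

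Library totals ran from 7.78 M to 9.16 M reads mapped uniquely to genes. In 16 libraries the table was complete. That of sham replicate 2 ended at 52 reads and that of 0.5 h replicate 1 at 157 reads, so a gene they do not list is unknown and not 0. All members but Slco1a4 were listed in all 18 libraries and were tested together with 4906 genes that both short tables list. Slco1a4, unlisted in 0.5 h replicate 1, was tested over 12199 genes in the 16 complete libraries, a fit that leaves out sham replicate 2 and 0.5 h replicate 1. Levels are CPM (counts scaled to library size) after TMM scaling, as mean ± SD of 2 pools. Changes are given on the log2 scale with their SE and come from the quasi-likelihood F-test of edgeR, its p adjusted over all genes tested by Benjamini and Hochberg. A gene was called at an adjusted p under 0.05. The p-values measure the spread between these pools. Where the pools of a time lay apart from both sham pools, this is a description of 2 pools against 2, with no share over all genes beside it. A fit that leaves out a library takes the spread of its partner from the remaining groups. When libraries were scaled by totals alone, the median gene stood at -0.17 against sham in the 2 h group, at -0.37 in the 4 h group, at 0.11 in the 24 h group and at 0.15 in the 48 h group, and at 0.48 from 4 to 24 h. Changes below are relative to that median. The hepatocyte markers (Alb, Apoa1, Ttr and others, 7 genes) summed to 131895 and 138075 CPM in sham, 95296 and 89797 CPM at 24 h, 128215 and 131146 CPM at 48 h, and between 134218 and 176163 CPM at the other times. In bulk liver, fewer hepatocytes and less RNA per hepatocyte cannot be told apart.

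Positions are those of RefSeq on GRCm38, the mouse build that the labels name as mm10. Slco1b2 (chromosome 6, 141629452 to 141686646, plus strand), Slco1a4 (141805438 to 141856284, minus strand) and Slco1a1 (141907281 to 141946962, minus strand) lie in one cluster, with gaps of 119 kb between Slco1b2 and Slco1a4 and 51 kb between Slco1a4 and Slco1a1. Slc10a1 is on chromosome 12 (80953185 to 80968705, minus strand). Among the exporters, Abcb11 lies on chromosome 2 (69238282 to 69342616, minus strand), Abcc2 on 19 (43782308 to 43838332, plus), Abcb4 on 5 (8893614 to 8959226, plus) and Abcc3 on 11 (94343295 to 94393017, minus). Abcg5 (84658174 to 84683011, minus) and Abcg8 (84676302 to 84700333, plus) overlap on chromosome 17. Exons of Abcg5 and Abcg8 share 82 bases on opposite strands, 3.02% of the exonic bases of Abcg5 and 2.19% of those of Abcg8. Exons of Abcb11 share 136 bases with the antisense gene Gm13613, 2.64% of the exonic bases of Abcb11. No source used here gives the strand setting of the counting, and reads from those bases cannot be assigned. Of all 50-base words in a member's transcripts, at most 2.87% (Abcb4) occurred in the transcripts of another gene, and for Slco1a1 the share was 1.64%, nearly all of it with Slco1a4.

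RefSeq promoter windows (GRCm38.p6, 250 bases before to 50 after a start) were matched for 9 of the 10 members, 11 windows in all. The stretches below are printed 5′ to 3′ on the gene's strand for the uptake genes, which held the largest falls, and for the stretch between the starts of Abcg5 and Abcg8, whose levels moved together between pools. Each lies before the first RefSeq start of its gene, except the last, which lies between the start of Abcg5 and a start of Abcg8 109 bases away and inside the longer RefSeq span of Abcg8. None overlaps a GENCODE exon. Capitals mark the nuclear receptor letters AGGTCA or their reverse complement TGACCT, or the STAT letters TTCNNNGAA.
Slc10a1, chr12:80968706-80968955, minus strand: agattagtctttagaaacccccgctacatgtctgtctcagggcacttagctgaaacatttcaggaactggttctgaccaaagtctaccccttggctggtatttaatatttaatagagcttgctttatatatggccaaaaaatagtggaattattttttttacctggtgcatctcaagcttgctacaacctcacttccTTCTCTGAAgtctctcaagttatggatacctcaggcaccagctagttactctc
Slco1b2, chr6:141629268-141629451, plus strand: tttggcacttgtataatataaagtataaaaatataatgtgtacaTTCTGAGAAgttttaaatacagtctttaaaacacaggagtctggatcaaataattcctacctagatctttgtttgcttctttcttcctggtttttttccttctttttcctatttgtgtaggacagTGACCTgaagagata
Slco1a1, chr6:141946963-141947212, minus strand: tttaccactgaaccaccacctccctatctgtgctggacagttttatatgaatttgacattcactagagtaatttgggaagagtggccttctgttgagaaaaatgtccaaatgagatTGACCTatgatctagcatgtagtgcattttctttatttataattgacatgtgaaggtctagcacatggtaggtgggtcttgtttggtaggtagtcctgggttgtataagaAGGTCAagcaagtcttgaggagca
Slco1a4, chr6:141856285-141856470, minus strand: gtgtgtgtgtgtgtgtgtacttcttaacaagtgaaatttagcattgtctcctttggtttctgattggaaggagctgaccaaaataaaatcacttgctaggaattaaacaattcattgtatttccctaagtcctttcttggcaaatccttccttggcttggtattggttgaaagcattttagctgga
Abcg5 to Abcg8, chr17:84683012-84683120, plus strand: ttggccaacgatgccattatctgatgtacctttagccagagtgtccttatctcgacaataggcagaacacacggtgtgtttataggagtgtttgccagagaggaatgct
Over the 250 bases before a start, both strands searched, AGGTCA was found in 5 of 11 member windows and in 14% of all 32851 windows searched. Those windows leave out 1 chromosome, on which no member lies. TTCNNNGAA was found in 2 of 11 (Slc10a1 and Slco1b2) against 7.02%, and the HNF1 letters GTTAAT in 1 of 11 (Slco1b2) against 6.43%. The full IR1 site of FXR, DR4 site of LXR, DR1 site of HNF4 and HNF1 palindrome, each a pair of these letters at a fixed spacing, were in 0 of the 11 and in 0.00609%, 0.0152%, 0.0335% and 0.00913% of all windows. The full sites hold the shorter letters, so the searches overlap, and a match or its absence describes these letters in this window alone.

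Over the whole course 8 of the 10 members differed among the 9 groups, where 68.6% of the 4906 genes and 42.8% of the 12199 did. The smallest adjusted p among members was that of Abcb4 (0.00093), followed by Slc10a1 (0.003), Slco1a1 (0.00361), Abcb11 (0.00501), Slco1b2 (0.00571), Slco1a4 (0.00659), Abcc3 (0.013) and Abcc2 (0.0197). The sterol exporters Abcg5 (0.684) and Abcg8 (0.597) did not pass. Per length, the order of sham levels by deposited RPKM was Slc10a1 (358 ± 3.1), Slco1b2 (227 ± 18.4), Abcb11 (144 ± 5.99), Slco1a1 (98.8 ± 16.5), Abcc2 (54.4 ± 2.53), Abcb4 (43.6 ± 0.0261), Abcc3 (33.2 ± 0.46), Abcg5 (19.1 ± 2.32), Abcg8 (15.4 ± 3.26) and Slco1a4 (5.62 ± 0.748). Of neighbours in this order, the sham pools of Abcg5 and Abcg8 overlapped, and those of the others did not. At 48 h Slco1a1, the fourth in sham, stood at 16.9 ± 0.12 RPKM, within the range of the pools of Abcg8 (14.4 and 22), while Slc10a1 (193 ± 4.75) remained the highest.

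**Figure D1:**
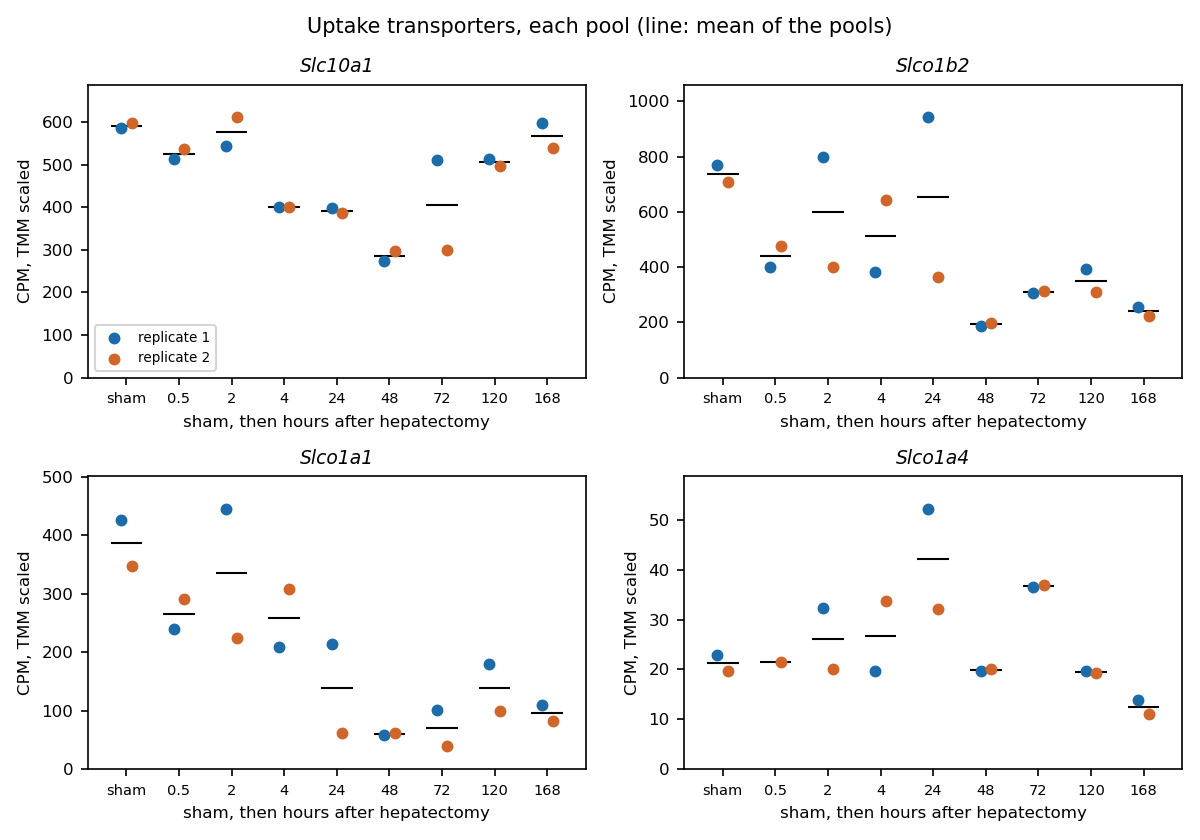
CPM after TMM scaling of the 4 uptake genes (y, linear from 0) in sham and at each time (x), with 1 point per pool and a line at the mean. Slc10a1, Slco1b2 and Slco1a1 have their lowest mean at 48 h, and the pools of Slco1b2 and Slco1a1 lie far apart at 2 and 24 h. Slco1a4 has 1 point at 0.5 h, since it is unlisted in replicate 1.

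Slc10a1, the sodium-dependent bile acid carrier, was down to 48.3% of its sham mean at 48 h. Its CPM in replicates 1 and 2 was 586 and 598 in sham, 513 and 536 at 0.5 h, 543 and 612 at 2 h, 400 and 401 at 4 h, and 399 and 386 at 24 h. Later it was 274 and 297 at 48 h, 511 and 299 at 72 h, 514 and 497 at 120 h, and 597 and 540 at 168 h. Both pools lay below both sham pools at each time but 2 and 168 h, where the ranges overlapped. Against sham it fell at 4 h (-0.56 ± 0.18, adjusted p = 0.0266), at 24 h (-0.59 ± 0.18, adjusted p = 0.0365) and at 48 h (-1.05 ± 0.18, adjusted p = 0.00102). The hepatocyte marker sum was also below sham at 24 h, and its part in the 24 h falls of Slc10a1 and Abcb11 was not tested. The call at 4 h ended without either sham or either 4 h pool (-0.58 to -0.55, adjusted p 0.0856 to 0.107). That at 24 h ended without either sham pool, either 24 h pool, 48 h replicate 2 or 120 h replicate 2 (-0.63 to -0.58, adjusted p 0.0502 to 0.139). The 72 h pools differed 1.71-fold, which 2.02% of the 4906 genes equalled or exceeded there, and the 72 h change was -0.55 ± 0.18 (adjusted p = 0.0614). Without 72 h replicate 1 it was -0.99, adjusted p = 0.00101, and the step from 72 to 120 h was then 0.76, adjusted p = 0.0164. Without 72 h replicate 2 the step from 48 to 72 h was 0.85, adjusted p = 0.00487. Without either 72 h pool the steps from 2 to 4 h (-0.53) and from 24 to 48 h (-0.46 to -0.45) passed as well. At 168 h the difference from sham was -0.06 ± 0.18 (adjusted p = 0.847).

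Slco1b2, the mouse liver carrier of the OATP1B kind, which takes up bilirubin conjugates, bile acids and many drugs, was at 26% of its sham mean at 48 h and 32.5% at 168 h. Its CPM was 769 and 708 in sham, 399 and 478 at 0.5 h, 800 and 402 at 2 h, 382 and 643 at 4 h, and 943 and 365 at 24 h. From 48 h on it was 186 and 199, then 305 and 312 at 72 h, 394 and 308 at 120 h, and 255 and 224 at 168 h. All 8 pools from 48 to 168 h lay below every pool of sham and of the 4 earlier times except 24 h replicate 2 (365) and 4 h replicate 1 (382), which 120 h replicate 1 (394) exceeded. Slco1b2 fell against sham at 48 h (-1.94 ± 0.39, adjusted p = 0.00249), 72 h (-1.26 ± 0.38, adjusted p = 0.045) and 168 h (-1.62 ± 0.38, adjusted p = 0.0338). At 120 h, between those times, the value was -1.07 ± 0.38 (adjusted p = 0.215). From 24 to 48 h it fell by -1.77 ± 0.39 (adjusted p = 0.012), and without 24 h replicate 1 or either 48 h pool that call ended (-1.80 to -0.94, adjusted p 0.0734 to 0.162). The 168 h call ended without either sham or either 168 h pool (-1.72 to -1.53, adjusted p 0.0975 to 0.282). The 72 h call ended without any 1 of 11 libraries, both pools of sham, 0.5, 48, 72 and 168 h and 120 h replicate 1 (-1.32 to -1.20, adjusted p 0.0514 to 0.217).

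Slco1a1, a carrier of sulfated steroids and bile acids whose transcript is higher in male than in female mouse liver, had the largest range of the members, 11.2-fold between its highest and lowest library. Its CPM was 426 and 347 in sham, 239 and 292 at 0.5 h, 446 and 224 at 2 h, 209 and 308 at 4 h, and 214 and 62.1 at 24 h. It was then 57.7 and 61.1 at 48 h, 102 and 39.8 at 72 h, 180 and 98.9 at 120 h, and 109 and 81.9 at 168 h. Every pool from 24 h on lay below both sham pools, and all but 24 h replicate 1 lay below every pool up to 4 h. Slco1a1 fell against sham at 48 h (-2.70 ± 0.55, adjusted p = 0.00271), 72 h (-2.45 ± 0.54, adjusted p = 0.011) and 168 h (-2.02 ± 0.53, adjusted p = 0.0466), and its 120 h value was -1.47 ± 0.52 (adjusted p = 0.215). The 24 h value, -1.49 ± 0.52 (adjusted p = 0.0675), passed without 24 h replicate 1 or 72 h replicate 2 (-2.65 to -1.49, adjusted p 0.0111 to 0.0472). Without 24 h replicate 1 the step from 4 to 24 h was -2.06 (adjusted p = 0.0139), and without 24 h replicate 2 that from 24 to 48 h was -1.83 (adjusted p = 0.0202). The 72 h call ended without sham replicate 1 or 72 h replicate 2 (-2.30 to -1.91, adjusted p 0.0635 to 0.139). The 168 h call ended without any 1 of 8 libraries, both pools of sham, 0.5, 48 and 168 h (-2.24 to -1.83, adjusted p 0.0575 to 0.312).

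Slco1a4, a broad carrier of organic anions and of digoxin, was the scarcest member, and its highest mean was at 24 h, where Slco1b2 and Slco1a1 had theirs in sham. Its CPM was 23 and 19.7 in sham, 21.5 in 0.5 h replicate 2, 32.4 and 20 at 2 h, 19.6 and 33.7 at 4 h, and 52.3 and 32.2 at 24 h. In 0.5 h replicate 1 it was unlisted, which bounds it at 157 reads, or 19 CPM. It was 19.6 and 20.1 at 48 h, 36.5 and 37 at 72 h, 19.6 and 19.3 at 120 h, and 13.9 and 11.1 at 168 h. Both pools lay above both sham pools at 24 and 72 h and below them at 168 h. At 120 h they lay barely below, the higher at 19.6 and the lower sham pool at 19.7 CPM. The fewest reads behind any of these values were 104. From 24 to 48 h Slco1a4 fell by -1.09 ± 0.27 (adjusted p = 0.03), where 2.38% of the 12199 genes were called lower. That call ended without 24 h replicate 1 or either 48 h pool (-1.11 to -0.70, adjusted p 0.156 to 0.291). Against sham, with sham replicate 1 alone in the fit, it was not called at 24 h (0.85 ± 0.34, adjusted p = 0.201), 72 h (0.65 ± 0.34, adjusted p = 0.32) or 168 h (-0.85 ± 0.34, adjusted p = 0.202). With sham replicate 2 added, in a fit of 17 libraries chosen after the tables were seen, the 24 h value was 0.95 ± 0.27 with adjusted p = 0.0374. Without 4 h replicate 2 or 24 h replicate 2 its step from 4 to 24 h passed (0.94 to 1.10, adjusted p 0.0349 to 0.0409), where both replicates gave 0.68 ± 0.27 (adjusted p = 0.0896).

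**Figure D2:**
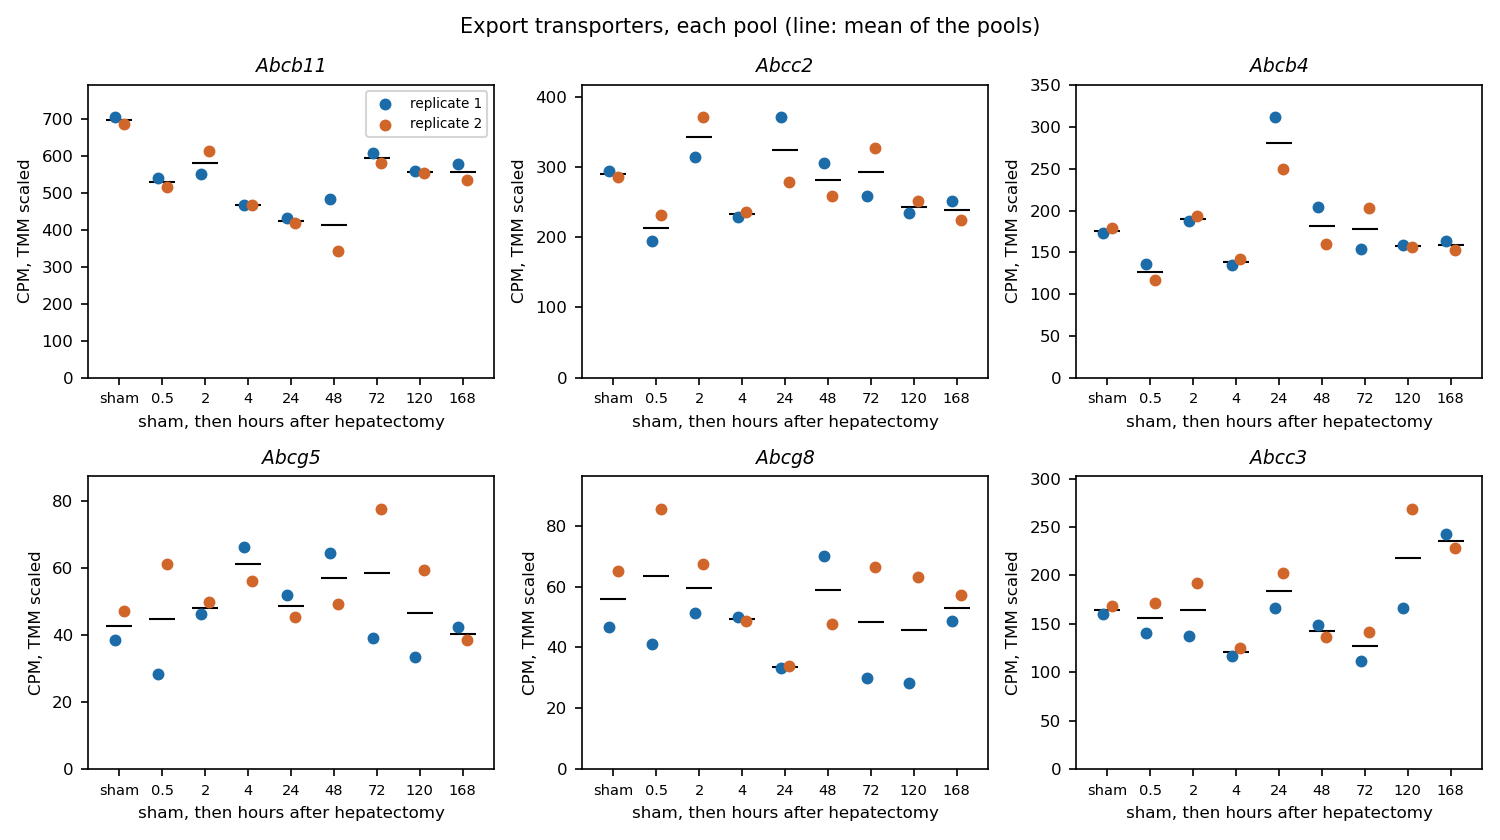
CPM after TMM scaling of the 6 export genes (y, linear from 0) in sham and at each time (x), with 1 point per pool and a line at the mean. Abcb11 is lowest at 48 h and Abcb4 highest at 24 h, while the pools of Abcg5 and Abcg8 are far apart at 0.5, 72 and 120 h.

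Abcb11, the bile salt export pump, was at 67.1% of its sham mean at 4 h, 61% at 24 h and 59.3% at 48 h. Its CPM was 704 and 686 in sham, 539 and 516 at 0.5 h, 550 and 611 at 2 h, 467 and 466 at 4 h, and 431 and 417 at 24 h. It was 483 and 342 at 48 h, 607 and 580 at 72 h, 558 and 554 at 120 h, and 578 and 534 at 168 h. Every pool after resection lay below both sham pools. It fell against sham at 4 h (-0.58 ± 0.14, adjusted p = 0.00561), 24 h (-0.71 ± 0.14, adjusted p = 0.00434) and 48 h (-0.75 ± 0.14, adjusted p = 0.00146). The other times lay between -0.40 ± 0.14 at 0.5 h (adjusted p = 0.231) and -0.23 ± 0.14 at 72 h (adjusted p = 0.292) and were not called. The step from 48 to 72 h was 0.52 ± 0.14 (adjusted p = 0.0519), and it passed without 24 h replicate 1 or 48 h replicate 1 (0.54 to 0.81, adjusted p 0.0213 to 0.0491).

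Abcb4, the phosphatidylcholine floppase, moved the other way from Abcb11 at 24 h. Its CPM was 173 and 179 in sham, 136 and 117 at 0.5 h, 187 and 194 at 2 h, 135 and 142 at 4 h, and 312 and 250 at 24 h. From then on it was 204 and 160 at 48 h, 154 and 203 at 72 h, 159 and 156 at 120 h, and 164 and 153 at 168 h. The 24 h pools lay above all 16 others, and those at 0.5, 4, 120 and 168 h lay below both sham pools. Abcb4 rose from 0.5 to 2 h (0.59 ± 0.15, adjusted p = 0.0228) and from 4 to 24 h (1.02 ± 0.15, adjusted p = 0.000242), and it fell from 24 to 48 h (-0.63 ± 0.15, adjusted p = 0.0183). Against sham it rose at 24 h (0.67 ± 0.15, adjusted p = 0.00968). The call against sham ended without either sham pool or 24 h replicate 1 (0.50 to 0.70, adjusted p 0.057 to 0.0722), and that from 24 to 48 h without 24 h replicate 1 or 48 h replicate 2 (-0.47 to -0.45, adjusted p 0.155 to 0.171). The call from 0.5 to 2 h ended without 0.5 h replicate 2 or either 2 h pool (0.49 to 0.62, adjusted p 0.0767 to 0.146). From 2 to 4 h the value was -0.46 ± 0.15 (adjusted p = 0.063), which passed without any 1 of the 24 and 72 h pools (adjusted p 0.0453 to 0.0472).

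Abcc2, the canalicular pump of bilirubin and drug conjugates, was called between early times and at no time against sham. Its CPM was 294 and 285 in sham, 195 and 232 at 0.5 h, 314 and 371 at 2 h, 229 and 236 at 4 h, and 371 and 278 at 24 h. It was 305 and 258 at 48 h, 258 and 327 at 72 h, 235 and 252 at 120 h, and 251 and 225 at 168 h. The 0.5, 4, 120 and 168 h pools lay below both sham pools and the 2 h pools above them. It rose from 0.5 to 2 h (0.68 ± 0.16, adjusted p = 0.0148), fell from 2 to 4 h (-0.56 ± 0.16, adjusted p = 0.0362) and rose from 4 to 24 h (0.48 ± 0.16, adjusted p = 0.0351). The first call ended without 0.5 h replicate 1 or 2 h replicate 2 (0.55 to 0.56, adjusted p 0.0806 to 0.116). The second ended without sham replicate 2, 2 h replicate 2 or either 4 h pool (-0.57 to -0.43, adjusted p 0.05 to 0.223), and the third without either 4 h pool or 24 h replicate 1 (0.25 to 0.47, adjusted p 0.121 to 0.286).

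Abcc3, the sinusoidal exporter that returns conjugates to blood, had its lowest mean at 4 h and its highest at 168 h. Its CPM was 160 and 168 in sham, 140 and 171 at 0.5 h, 137 and 192 at 2 h, 117 and 125 at 4 h, and 166 and 202 at 24 h. It was 149 and 136 at 48 h, 112 and 142 at 72 h, 166 and 269 at 120 h, and 243 and 228 at 168 h. Both 168 h pools lay above all others but 120 h replicate 2, at a difference from sham of 0.52 ± 0.21 that did not pass (adjusted p = 0.13). Abcc3 rose from 4 to 24 h (0.60 ± 0.21, adjusted p = 0.0428). That call ended without any 1 of 9 libraries, both pools of sham, 4, 48 and 168 h and 24 h replicate 2 (0.45 to 0.63, adjusted p 0.0547 to 0.228). From 72 to 120 h the value was 0.77 ± 0.21 (adjusted p = 0.0874), and without 120 h replicate 1 it was 1.08, adjusted p = 0.0242. The 5 Kupffer cell markers (Clec4f, Vsig4, Cd5l, Adgre1 and Timd4, none at 0 in a complete library) summed to 598 and 707 CPM at 120 h and 670 and 850 CPM at 168 h, against 357 and 347 CPM in sham. Their part in the Abcc3 values was not tested.

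Abcg5 and Abcg8, the partners of the sterol exporter, were called in none of the 15 comparisons between times or with sham. Of these 30 values 0 had an unadjusted p under 0.05 in edgeR, and DESeq2 called none of them either. A fit of sham and 4 h alone called Abcg5 at 4 h (0.51, adjusted p = 0.0492). Abcg5 was 38.4 and 47.1 CPM in sham, 28.5 and 61.1 at 0.5 h, 46.2 and 49.8 at 2 h, 66.3 and 56.3 at 4 h, and 51.9 and 45.4 at 24 h. It was 64.5 and 49.4 at 48 h, 39.1 and 77.8 at 72 h, 33.5 and 59.5 at 120 h, and 42.3 and 38.5 at 168 h. Both pools lay above both sham pools at 4 and 48 h, at 0.52 ± 0.36 (adjusted p = 0.276) and 0.41 ± 0.35 (adjusted p = 0.37). Abcg8 was 46.8 and 65.3 CPM in sham, 41.2 and 85.7 at 0.5 h, 51.4 and 67.6 at 2 h, 50 and 48.6 at 4 h, and 33.3 and 33.8 at 24 h. It was 70 and 47.8 at 48 h, 30.1 and 66.6 at 72 h, 28.4 and 63.3 at 120 h, and 48.8 and 57.2 at 168 h. The 24 h pools of Abcg8 lay below both sham pools (-0.74 ± 0.42, adjusted p = 0.246), and at every other time the ranges overlapped. Within a group the replicates of these genes differed by up to 2.13-fold for Abcg5 and 2.22-fold for Abcg8.

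Counted by direction of transport, more uptake than export members were called at 48, 72 and 168 h. The comparisons with sham share the sham pools and so are not independent of each other. At 0.5, 2 and 120 h edgeR called no member, where 0.204%, 8.76% and 0.775% of the 4906 genes were called. At an unadjusted p under 0.05 there were 3 members at 0.5 h (Abcb11, Abcc2 and Abcb4), 0 at 2 h and 3 at 120 h (Slco1b2, Slco1a1 and Abcb11), and DESeq2 called 0 at each. No share over all genes is given for the unadjusted threshold or for DESeq2, so these counts cannot be set against the shares above. At 4 h 1 of 4 uptake and 1 of 6 export members were lower, where 18.8% of genes were called lower. At 24 h 1 of 4 uptake members was lower, and of 6 export members 1 was lower and 1 higher, where 9.46% of genes were called lower and 7.87% higher. At 48 h 3 of 4 uptake and 1 of 6 export members were lower, where 18.9% of genes were called lower. The median log2 change of the uptake members was then -1.50 and that of the export members 0.00, with -0.01 for the 4906 genes. At 72 and 168 h 2 of 4 uptake members and 0 of 6 export members were lower, where 6.42% and 3.34% of genes were called lower. The uptake medians were -0.90 and -1.23 and the export medians -0.10 and -0.12, beside -0.02 and 0.02 for all genes. At 168 h all 4 uptake members had values below 0, but that of Slc10a1 was -0.06, and 5 of 6 export members were below 0 as well. No test of uptake against export was made.

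**Figure D3:**
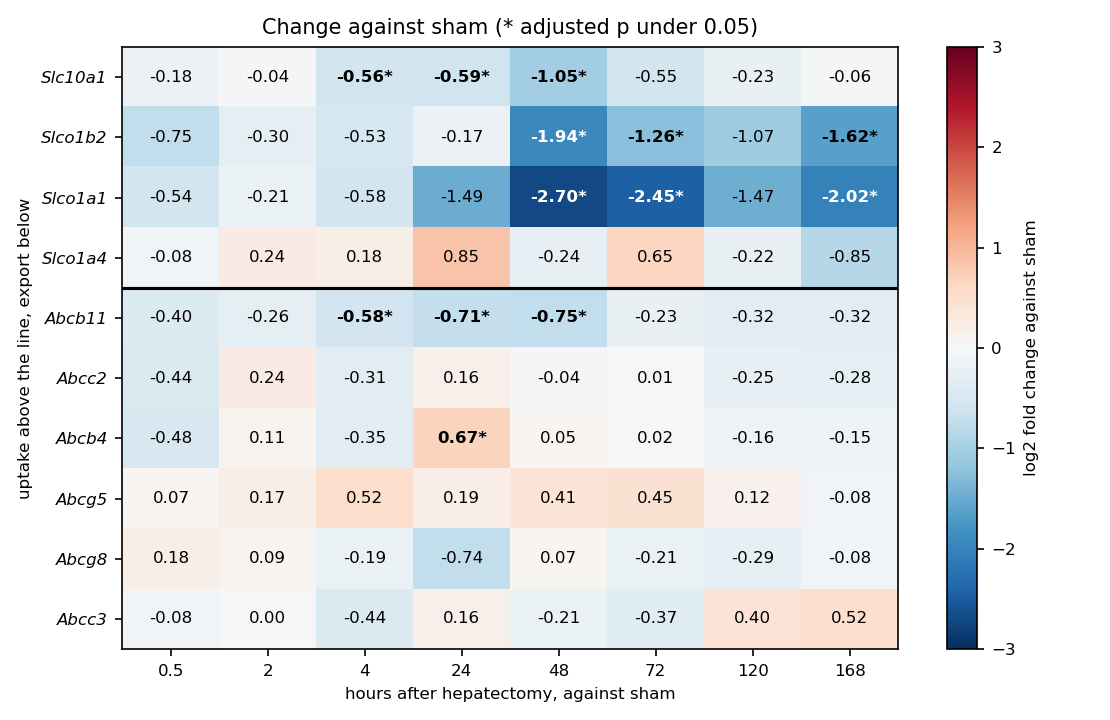
Log2 fold change against sham (colour and number) of each member (rows, uptake above the line and export below) at each time in hours (columns), with an asterisk at an adjusted p under 0.05. The lowest value is -2.70 for Slco1a1 at 48 h, and the 1 called rise is 0.67 for Abcb4 at 24 h. Slco1a4 comes from the fit of 16 libraries.

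Between neighbouring times the called steps of members fell in the first 48 h. From 0.5 to 2 h 2 of 10 members rose (Abcb4 and Abcc2), where 6.67% of genes were called higher, and from 2 to 4 h 1 of 10 fell (Abcc2), where 9.03% were called lower. From 4 to 24 h 3 of 10 rose (Abcb4, Abcc2 and Abcc3), where 17.5% of genes were called higher. The uptake gene Slco1a4, tested in the 16-library fit, was not called (0.68 ± 0.27, adjusted p = 0.0896), though its value was above those of Abcc2 and Abcc3. From 24 to 48 h 3 of 10 fell (Slco1b2, Slco1a4 and Abcb4), where 6.58% were called lower. No member was called by edgeR from 48 to 72, 72 to 120 or 120 to 168 h, where 3.67%, 1.16% and 0% of genes were. At an unadjusted p under 0.05 there were 3, 2 and 1 members, and DESeq2 called 1, 1 and 0. These counts again have no share over all genes at the same threshold or method beside them. With libraries scaled by totals alone the values of Slc10a1 and Abcb11 from 4 to 24 h changed sign, from -0.03 to 0.46 and from -0.14 to 0.36, and both then passed. The direction of these steps therefore depends on the scaling.

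The pools of some groups differed by about 2-fold or more for Slco1b2 and Slco1a1 and for the sterol exporters. The differences within the chromosome 6 genes and within the sterol exporters went together in most groups. This was not particular to these sets, since some exporters at other loci did so as well (values below). At 2 h Slco1b2 and Slco1a1 were each 1.99-fold higher in replicate 1, and Slco1a4 was 1.55-fold higher there. At 24 h they were 2.58-, 3.44- and 1.6-fold higher in replicate 1, and at 4 h 1.69-, 1.47- and 1.68-fold higher in replicate 2. Differences as large as those of Slco1b2 and Slco1a1 were held by 0.856% and 0.876% of the 4906 genes at 2 h, and by 0.571% and 0.245% at 24 h. Those of Slco1a4 were held by 16.7%, 12.2% and 18.7% of the 12199 genes at 2, 4 and 24 h. Across the 9 groups the pool differences of Slco1b2 and Slco1a1 had the same sign in 8, with r = 0.83. Across the 7 groups with 2 complete libraries, in the scaling of the 16-library fit, those of Slco1b2 and Slco1a4 had the same sign in 7, with r = 0.93, and those of Slco1a1 and Slco1a4 in 7, with r = 0.77. In the scaling of the 18-library fit the 72 h difference of Slco1b2 was 0.03 on the log2 scale, opposite in sign to that of Slco1a4 (-0.08). Over the libraries themselves Slco1a1 and Slco1a4 had r = 0.15 (16 libraries) and Slco1b2 and Slco1a1 r = 0.82 (18 libraries). At 72 h Slco1a1 was 2.54-fold higher in replicate 1, where Slco1b2 (1.02-fold) and Slco1a4 (1.05-fold) barely differed. These correlations describe 7 to 18 points that share library and scaling.

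For the sterol exporter, replicate 2 was higher than replicate 1 for both genes at 0.5 h (2.13-fold for Abcg5, 2.07-fold for Abcg8), 72 h (1.98- and 2.2-fold) and 120 h (1.77- and 2.22-fold). The pool differences of Abcg5 and Abcg8 had r = 0.96 across the 9 groups, while their levels over the 18 libraries had r = 0.59. Pool differences of exporters at separate loci also correlated, with r = 0.75 for Abcc2 and Abcg5 and 0.74 for Abcc2 and Abcg8. For Abcc2 and Abcb4 r was 0.71, and for Abcg8 and Abcc3 0.70. The largest pool difference of Abcc3 was 1.62-fold (120 h), that of Abcb11 1.41-fold (48 h), that of Abcc2 1.33-fold (24 h) and that of Abcb4 1.31-fold (72 h). Markers of other cells differed between some of the same pools. The neutrophil and monocyte list (S100a8, S100a9 and others, 5 of 6 matched) summed to 5.55 and 53 CPM in the 24 h pools, 112 and 46.5 CPM at 4 h and 55.1 and 34.3 CPM at 2 h. Slco1a1 was thus lower in the 24 and 4 h pool with the higher sum and higher in the 2 h pool with the higher sum. The cholangiocyte list (Krt19, Krt7, Epcam and others, 7 genes) summed to 38.7 and 107 CPM at 72 h and 159 and 97.8 CPM at 4 h, beside 39.3 CPM in sham replicate 1, and Cftr was at 0 in 12 of the 16 complete libraries. The stellate cell list (5 genes) summed to 259 and 423 CPM in the 72 h pools, and the Kupffer list to 346 and 539 CPM in the 24 h pools. The part of these lists in the pool differences was not tested.

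**Figure D4:**
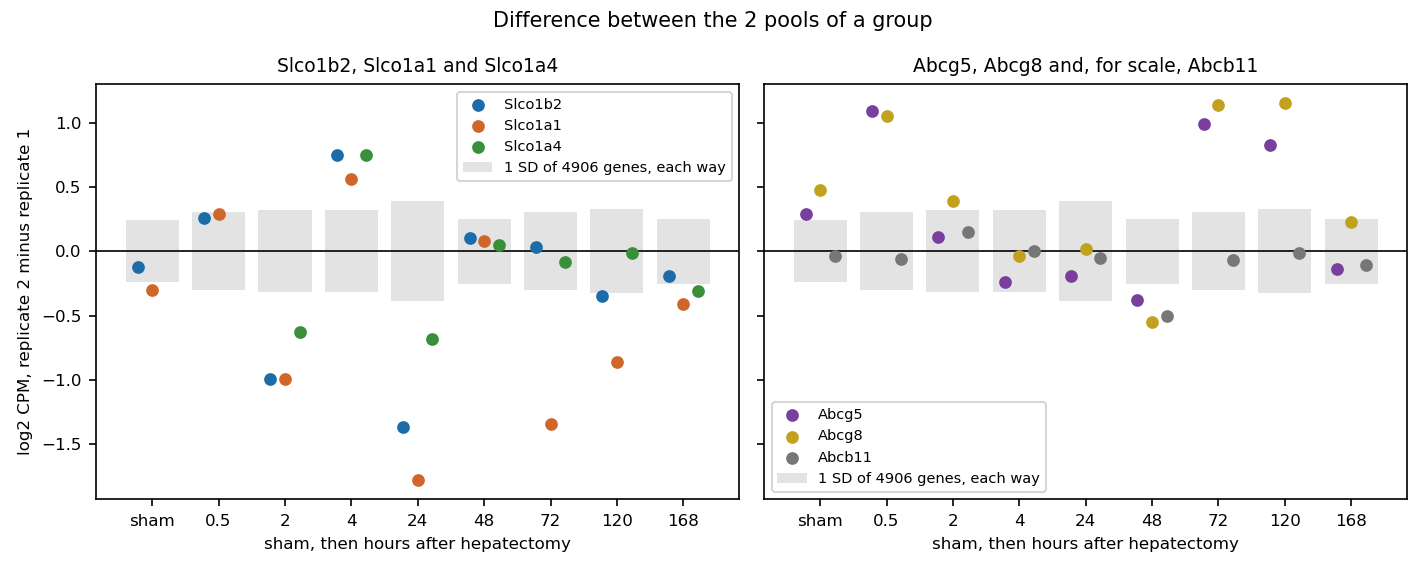
Difference in log2 CPM between replicate 2 and replicate 1 (y) in each group (x) for the 3 chromosome 6 genes (left) and for Abcg5, Abcg8 and Abcb11 (right), with grey bars of 1 SD over 4906 genes. The chromosome 6 genes lie below 0 at 2 and 24 h and above it at 4 h, and Abcg5 and Abcg8 lie near 1 at 0.5 h.

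Ratios of deposited RPKM within a library do not depend on scaling between libraries. Abcb11 to Abcb4 was 3.39 and 3.2 in the sham pools, 1.15 and 1.39 at 24 h, 1.97 and 1.78 at 48 h, and 2.93 and 2.92 at 168 h. The 24 h pools were the lowest of the 18. Abcg5 to Abcg8 was 1.33 and 1.17 in sham, 2.15 and 1.88 at 4 h, 2.53 and 2.18 at 24 h, 2.1 and 1.89 at 72 h, and 1.41 and 1.09 at 168 h. Unlike the levels of these genes, their ratio had pools close to each other at 72 h, and all pools from 4 to 120 h lay above both sham pools. Slco1a1 to Slco1a4 was 18 and 17.1 in sham, 3.97 and 1.87 at 24 h, 2.86 and 2.95 at 48 h, 2.7 and 1.04 at 72 h, and 7.59 and 7.16 at 168 h. Thus the scarcest uptake member came near Slco1a1 per length in 72 h replicate 2 alone (1.04), while 72 h replicate 1 (2.7) was close to the 48 h pools. Abcc3 to Abcc2, the sinusoidal over the canalicular anion exporter, was 0.585 and 0.637 in sham, 0.771 and 0.795 at 0.5 h, 0.482 and 0.783 at 24 h, 0.762 and 1.15 at 120 h, and 1.04 and 1.09 at 168 h. At 2, 4, 48 and 72 h all pools lay below both sham pools, between 0.467 and 0.569. Of the summed RPKM of the 4 uptake genes, Slc10a1 made up 50.3% and 53.8% in sham, 68.3% and 68.7% at 48 h, and 76.7% and 77.9% at 168 h.

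**Figure D5:**
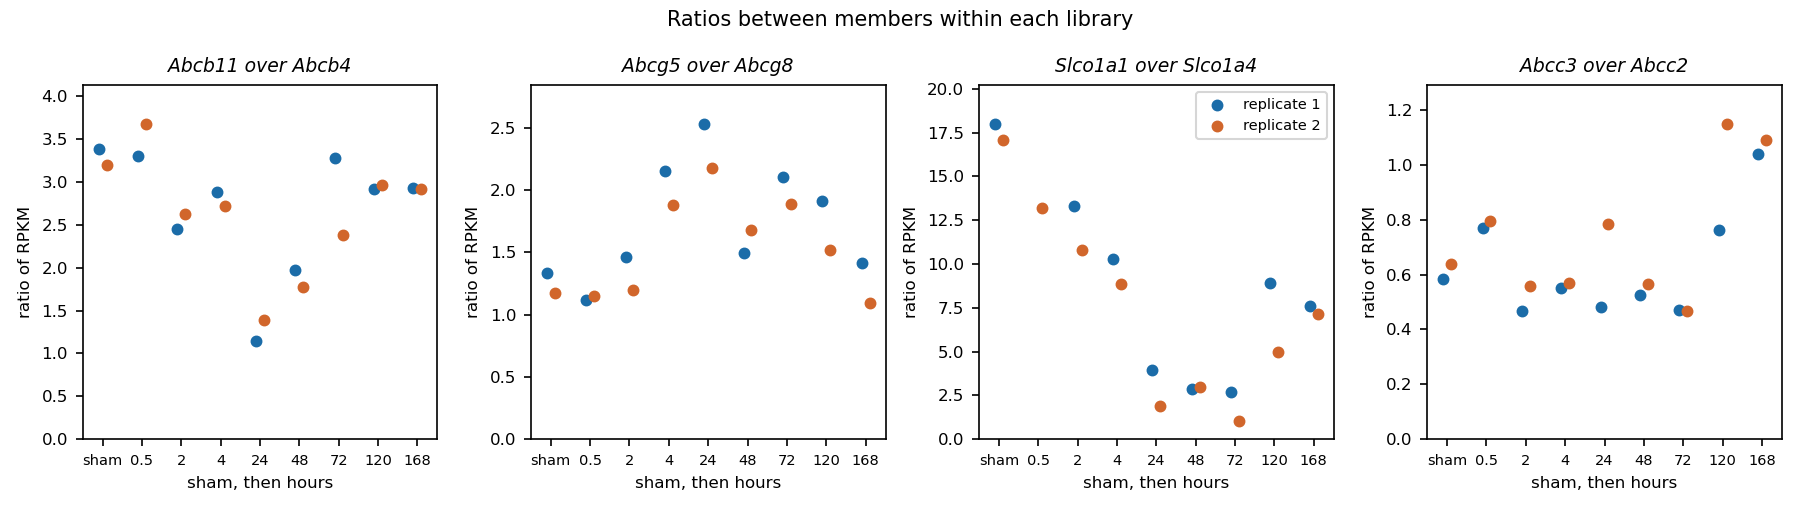
Ratio of deposited RPKM (y, linear from 0) of 4 pairs of members in each library, by group (x, sham then hours), with 1 point per pool. Abcb11 over Abcb4 is lowest at 24 h, at 1.15 and 1.39, where Abcg5 over Abcg8 is highest, at 2.53 and 2.18.

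Genes whose log2 CPM over the 18 libraries was most like that of a member were found by Pearson's r among the 4906 genes, as a description of points that share library and time. For Slc10a1 they were Cyp8b1, the sterol 12-hydroxylase of bile acid synthesis (r = 0.95), Gcdh (0.93) and Cyp2d9 (0.92). For Slco1b2 they included Trip4 (0.94) and Abca6 (0.93). For Slco1a1 they were the complement component C9 (0.96), the major urinary protein Mup3 (0.95) and the sterol carrier Scp2 (0.95). The exporters had looser partners. Abcb11 was most like Ube2h (0.86), Abcb4 like Slc16a12 (0.84), Abcc2 like Pdlim5 (0.82), Abcg8 like Slc24a6 (0.78) and Abcg5 like Patl1 (0.76). For Abcc3 they included Lcp1 (0.85), an actin bundler of leukocytes, and Parp14 (0.80). Slco1a4, over 16 libraries and 12199 genes, was most like Lrrk2 (0.87), a gene with at most 3.2 CPM. Between members the highest values were 0.82 for Slco1b2 and Slco1a1 and 0.80 for Abcc2 and Abcb4.

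Other genes of the same pathways were counted from 4 lists, with a gene tested in 18 libraries where both short tables list it and otherwise in 16. Over all genes of the 18-library fit, 16.9% were called higher and 18.8% lower at 4 h, 7.87% and 9.46% at 24 h, and 18% and 18.9% at 48 h. Over those of the 16-library fit the shares were 7.22% and 8.25% at 4 h, 1.26% and 1.66% at 24 h, and 7.66% and 7.25% at 48 h. The median gene of the 18-library fit was at 0.01 at 4 h and -0.01 at 48 h.

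The first list held other uptake and solute carriers and was not limited to uptake. Of 12 tested, 8 of them in 18 libraries, 2 were higher and 6 lower at 4 h, 1 and 3 at 24 h and 0 and 3 at 48 h. The median was -0.49 at 4 h and -0.05 at 48 h. Slc29a1 and Slc47a1 were among the lower genes at each of these times. The 6 lower at 4 h and the 3 lower at 24 h were larger shares than over all genes in either fit, and none of the 12 was higher at 48 h. Slc29a1, a nucleoside carrier, was at 199 ± 28.7 CPM in sham and 69.5 ± 4.65 CPM at 4 h (-1.52 ± 0.13, adjusted p = 4.74e-06). It was also lower at 24 h (-0.69 ± 0.13, adjusted p = 0.0036) and 48 h (-0.66 ± 0.13, adjusted p = 0.00219). Slc47a1, an organic cation exchanger, was lower at 4 h (-0.51 ± 0.17, adjusted p = 0.0362), 24 h (-1.28 ± 0.18, adjusted p = 0.000645) and 48 h (-0.75 ± 0.17, adjusted p = 0.00543). In the 16-library fit, with sham replicate 1 alone as sham, Slc22a5, the carnitine carrier, was higher at 2 h (2.02 ± 0.38) and 4 h (2.72 ± 0.38). Slc10a2, the apical bile acid carrier of bile ducts and ileum, was higher at 4 h (1.77 ± 0.28) in that fit. The cholangiocyte list stood at its highest at 4 h, and its part in the Slc10a2 value was not tested.

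Of 14 other exporters and lipid pumps, 5 of them in 18 libraries, 1 was higher and 1 lower at 4 h, 0 and 1 at 24 h and 1 and 2 at 48 h, with a median of 0.51 at 4 h and 0.15 at 48 h. These counts were near the shares over all genes. Abca1, the cholesterol efflux pump, was at 199 ± 47.2 CPM in sham and 804 ± 65.4 CPM at 4 h (2.02 ± 0.23, adjusted p = 2.16e-05). It was also higher at 2 h (0.81 ± 0.22, adjusted p = 0.0338). Abcc6 was lower at 4 h (-0.83 ± 0.19, adjusted p = 0.00425) and 24 h (-0.90 ± 0.19, adjusted p = 0.00678). Abcg1 and Abcc9, which differed among the 9 groups in the 16-library fit (adjusted p = 0.0014 and 0.0122), were called at no time against sham.

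Of 17 nuclear receptors and other regulators, all of them in 18 libraries, 3 were higher and 7 lower at 4 h, 2 and 1 at 24 h, and 1 and 3 at 48 h, with a median of -0.37 at 4 h and -0.13 at 48 h. The 7 lower at 4 h were a larger share than over all genes, and the counts at 24 and 48 h were near or below those shares, apart from the 2 higher at 24 h. Nr1i3 (CAR), a receptor for which Abcc2 and Abcc3 are known targets, was at 34.3 ± 2.71 CPM in sham, 14.9 ± 0.768 CPM at 4 h (-1.20 ± 0.20, adjusted p = 0.000547) and 74.5 ± 8.12 CPM at 24 h (1.12 ± 0.18, adjusted p = 0.00188). Ahr, the aryl hydrocarbon receptor, was higher at 2 h (1.09 ± 0.20, adjusted p = 0.00334) and 4 h (1.14 ± 0.20, adjusted p = 0.000568). Cebpb, a transcription factor of the acute phase, was higher at 2 h (0.83 ± 0.17, adjusted p = 0.00866) and 4 h (1.13 ± 0.17, adjusted p = 0.000243) and lower at 72 h (-0.58 ± 0.17, adjusted p = 0.0431). Stat5b, which carries growth hormone signals to male-biased liver genes, was lower at 4 h (-0.83 ± 0.18, adjusted p = 0.00306), 24 h (-0.82 ± 0.18, adjusted p = 0.00764) and 48 h (-0.56 ± 0.18, adjusted p = 0.0235). The 48 h calls were Nr1h4 (FXR), the bile acid receptor, Ghr and Stat5b, all lower, and Nfe2l2, higher.

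Of 12 scaffold and trafficking partners of the transporters, 9 of them in 18 libraries, 4 were higher and 2 lower at 4 h, 2 and 0 at 24 h and 4 and 1 at 48 h, with a median of 0.00 at 4 h and 0.22 at 48 h. The 4 higher at 4 and at 48 h were a larger share than over all genes, and the counts lower were near or below those shares. The scaffold Slc9a3r1 was higher at 4 h (0.81 ± 0.15, adjusted p = 0.00126), 48 h (0.66 ± 0.15, adjusted p = 0.00545) and 72 h (0.50 ± 0.15, adjusted p = 0.0477), and Rab11a, a GTPase of recycling endosomes, at 4 h (0.43 ± 0.13, adjusted p = 0.019). The motor Myo5b, which brings exporters to the canalicular membrane, was higher at 48 h (0.77 ± 0.15, adjusted p = 0.0024) and 72 h (0.54 ± 0.16, adjusted p = 0.0361). The tight junction protein Cgn was lower at 4 h (-1.64 ± 0.23, adjusted p = 0.000154). In these 4 lists no gene was called at 0.5, 120 or 168 h against sham.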

How the data were processed

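Poly(A)-selected RNA of pooled livers was sequenced in 18 libraries, per the labels' protocols. The authors deposited 1 table per library with unique read counts per gene and RPKM, reads scaled to gene length and library size, per the file headers. Reads were placed on mm10, per the submitters' processing notes, with aligner, counter and strand setting not given in the sources used here. Groups came from the sample labels.

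The deposited counts were tested with edgeR 4.0.16 (quasi-likelihood, TMM) in R 4.3.3, with the totals of each table as library sizes and all groups in 1 fit. A gene was kept if 2 or more libraries reached the CPM that 10 reads make in the library of median size and its reads summed to 15. The fit of 18 libraries held 4906 genes and that of 16 libraries 12199. CPM logs used a prior count of 2. Alternatives were DESeq2 1.42.0, limma 3.58.1 on log2 CPM or log2(RPKM + 1 or + 0.1), RLE factors, totals alone, no filter, unlisted genes as 0, other sets of libraries, 2 groups alone, a replicate block and each library left out. The edgeR step was tested on simulated data. Pools of a group differed by more than sampling noise (chi-square per degree of freedom 23.1 to 63.3), so none was counted as a repeat.

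The 10 members and the gene lists were chosen with earlier results of these data known. The 4 genes of each context list with the smallest p among groups are named, and the like genes were the 3 with the highest r, of which 2 are not reported here. Genes named outside this rule were chosen after their values were seen. Sequences and positions came from RefSeq (GRCm38.p6), and exons from GENCODE vM21.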

Additional observations from a re-analysis of the deposited data

How the results depend on the processing

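Of 22 called changes of members, 6 kept their call under all 30 alternatives, 18 of which left out 1 library: Abcb11 at 4 and 48 h and Slc10a1, Slco1a1 and Slco1b2 at 48 h, all against sham, and Abcb4 from 4 to 24 h. Abcb11 at 24 h lost it only in the 16 complete libraries. RLE factors, DESeq2, limma on log2 CPM, no filter and the replicate block kept all 22. The labels do not say whether replicate numbers pair the pools. Differences between the 2 pools of a group correlated between -0.55 and 0.53 over 36 pairs of groups, 14 of them over 0.1. These values cannot decide whether some groups share a pairing or a batch. The block added 1 call, Slco1a1 at 24 h. The count of members called among the 9 groups was 8 without any 1 library. The cause of the changes below was not tested. Fits of 2 groups or of 16 or 17 libraries use fewer libraries. Those of 16 or 17 libraries, and that with unlisted genes as 0, also adjust p over another set of genes.

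Members called against sham at 4 h were 2 as reported, 5 with log2(RPKM + 1), log2(RPKM + 0.1) or totals alone, 4 with only the 2 groups compared, and 1 with unlisted genes as 0 or with 16 libraries. At 24 h they were 3, and 0 with 16 libraries. At 72 h they were 2, and 1 with either RPKM fit, unlisted genes as 0, 17 libraries, totals alone or 16 libraries. At 168 h they were 2, then 1 with log2(RPKM + 0.1), 17 libraries or totals alone, 0 with unlisted genes as 0 or 16 libraries, and 4 with 2 groups. From 0.5 to 2 h they were 2, then 1 with either RPKM fit, 17 libraries or totals alone, and 0 with 2 groups or 16 libraries. From 2 to 4 h they were 1, then 3 with DESeq2, 5 with either RPKM fit or totals alone, and 0 with unlisted genes as 0 or 2 groups. From 4 to 24 h they were 3, then 6 with either RPKM fit or totals alone, and 1 with unlisted genes as 0, 2 groups or 16 libraries. From 24 to 48 h they were 3, and 0 with 2 groups. From 48 to 72 h they were 0, and 1 with DESeq2, limma on log2 CPM, no filter or 2 groups, and from 72 to 120 h 0, and 1 with DESeq2 or no filter. With 1 library left out, the counts ran from 1 to 2 at 4 h, 1 to 4 at 24 h, 0 to 2 at 72 and 168 h, 0 to 2 from 0.5 to 2 h, 0 to 3 from 2 to 4 h, 1 to 3 from 4 to 24 h, 0 to 4 from 24 to 48 h, and 0 to 1 from 48 to 72 h and from 72 to 120 h.

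From 4 to 24 h Slc10a1 turned from -0.03 to 0.46 with log2(RPKM + 1), log2(RPKM + 0.1) and totals alone, and Abcb11 from -0.14 to 0.35 with log2(RPKM + 1) and 0.36 with log2(RPKM + 0.1) or totals alone. Of the 128 values not called as reported, 55 changed sign in at least 1 setting that did not call them either, and as reported none of these was above 0.46 in size. The fewest reads behind a level were 104 for Slco1a4, 236 for Abcg5 and 248 for Abcg8, and counting error covers only part of the spread between 2 pools.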
